A study of Mus musculus with 12 samples.

Results

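The comparison described here is the effect of 4 days of DOT1L inhibition in mouse fibroblasts that had lost AF10 and were being reprogrammed towards pluripotency. Its members are the 4 libraries titled Day4_creAF10_SGC and Day4_creAF10_DMSO, 2 replicates of each, out of 12 libraries in the series, and they were chosen by title, joined across files by transcript identifier and paired by replicate number. Each library lists the same 20325 genes, of which 13936 had enough counts to be tested. The cells were mouse embryonic fibroblasts (MEFs) of a conditional AF10 line that also carried rtTA, the activator that responds to doxycycline, and OSKM, a cassette that expresses the reprogramming factors Pou5f1, Sox2, Klf4 and Myc. All 4 libraries are labelled AF10 -/-: the floxed gene had been deleted with the adenovirus Ad5-CMV-Cre, which expresses Cre from a general viral promoter. After 2 days the cassette was induced with doxycycline (2 µg/mL) together with DMSO as vehicle or SGC0946 at 5 µM. Cells then grew on DR4 feeder MEFs over gelatin in stem cell medium containing LIF until RNA was taken on day 4. The matching day 4 cells labelled fl (AF10 fl/fl) received the empty virus Ad5-CMV-Empty in place of Cre and the same DMSO or SGC0946 medium (2 libraries each). No group without floxed alleles received Cre, so AF10 loss and the Cre virus cannot be told apart. The labels do not say whether feeder cells were removed before harvest, and they name no animals, so p-values measure the spread between these libraries, 2 per group throughout.

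DOT1L is the enzyme that methylates lysine 79 of histone H3 along transcribed genes. AF10, the product of Mllt10, binds DOT1L and promotes the higher methylation states, and SGC0946 is a small molecule that blocks the enzyme's active site. DOT1L inhibition is known to raise the yield of reprogramming from fibroblasts, a process in which fibroblast genes are switched off and epithelial genes come on before the pluripotency network does. A comparison within AF10-deleted cells asks which genes still respond to the inhibitor when the cofactor is absent.

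Slc16a3, Hoxd12 and Igfbp5 were the marker genes given for this comparison, and the 250 bases before their annotated starts are shown here because they are among the genes with the clearest changes in either direction. The sequences are from the RefSeq annotation of build GRCm38.p6, not the mm9 build the reads were assigned to, and are written in the direction of transcription with each CG dinucleotide, the site of DNA methylation, in capitals. Slc16a3, which encodes the lactate exporter MCT4, lies on the plus strand and this window is chr11:120948817-120949066.
Slc16a3: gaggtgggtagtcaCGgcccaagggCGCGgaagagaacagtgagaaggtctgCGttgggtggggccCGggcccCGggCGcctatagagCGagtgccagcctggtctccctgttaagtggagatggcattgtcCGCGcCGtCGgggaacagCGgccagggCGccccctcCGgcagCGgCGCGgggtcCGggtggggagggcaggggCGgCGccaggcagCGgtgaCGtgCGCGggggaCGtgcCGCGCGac
Hoxd12, a 5′ gene of the HoxD cluster that patterns the limb, lies on the plus strand and its window is chr2:74674763-74675012.
Hoxd12: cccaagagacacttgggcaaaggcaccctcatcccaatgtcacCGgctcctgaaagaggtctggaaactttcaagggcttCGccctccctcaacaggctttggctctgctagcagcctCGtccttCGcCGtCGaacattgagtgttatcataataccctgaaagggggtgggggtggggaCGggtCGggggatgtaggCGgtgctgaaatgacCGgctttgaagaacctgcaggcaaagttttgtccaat
Igfbp5, which encodes a secreted binding protein of the insulin-like growth factors, lies on the minus strand and its window is chr1:72874866-72875115.
Igfbp5: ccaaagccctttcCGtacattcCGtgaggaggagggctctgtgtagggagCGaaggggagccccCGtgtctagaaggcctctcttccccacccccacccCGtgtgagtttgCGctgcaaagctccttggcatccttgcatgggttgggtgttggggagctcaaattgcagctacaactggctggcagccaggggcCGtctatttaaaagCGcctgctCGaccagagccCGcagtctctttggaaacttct
The Slc16a3 window held 29 CG dinucleotides and a GC content of 73.6%, and 6.78% of the 32841 windows in the RefSeq table held at least as many. The Hoxd12 and Igfbp5 windows held 10 each, a number that 37.8% of windows reached, beside a median of 6 over the table. These are descriptions of the windows, and no methylation was measured.

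Depth was similar across the libraries. The 4 libraries held 14645732 to 17531504 expected counts, within the range of 14602536 to 22800753 over all 12. Fibroblast genes remained abundant in both groups: Col1a2 was at 3490 and 3070 CPM (counts scaled to library size by the TMM method) in DMSO and 3930 and 3160 CPM in SGC0946. The count of Mllt10 was 44.2 and 41.8 CPM in AF10-deleted DMSO cells and 41.7 and 40.5 CPM in SGC0946, against 61.4 and 55.3 CPM in the fl DMSO cells. A gene-level count includes exons outside the deleted part, so it does not measure how complete the deletion was. The sum of 4 Y-linked genes was 4035 to 4780 counts in every replicate 1 library of the series and 8 to 52 in every replicate 2 library. Replicate numbers 1 and 2 therefore mark cells of different sex, and the replicate number was kept as a block in the test.

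SGC0946 raised more genes than it lowered in AF10-deleted cells, and the larger changes were nearly all increases. Of the 13936 genes tested, 736 were higher (5.28%) and 344 lower (2.47%) at an adjusted p under 0.05 (edgeR's quasi-likelihood test, Benjamini-Hochberg adjustment), which is 7.75% in either direction and is the background for every count below. The median log2 fold change was 0.63 among the genes that rose and -0.34 among those that fell, while the median over all tested genes was -0.004. A change of more than 2-fold was seen for 157 of the genes that rose and 8 of those that fell. All but 1 of the 1080 changed in the same direction in both replicate pairs, as calling on these same pairs partly fixes. The exception, Rangrf, named after its values were seen, was at 0 CPM in 3 of the libraries and 11.8 CPM in SGC0946 replicate 2, so its call rests on that library.

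These counts depended on the pairing by replicate number. Without the replicate block edgeR called 1 gene higher and 0 lower, and 955 genes passed an unadjusted p of 0.05, against 2864 with the block and 697 by chance. DESeq2 with the block called 292 higher and 145 lower. Leaving out DMSO replicate 1 gave 349 higher and 145 lower, and DMSO replicate 2 gave 497 and 224. Leaving out SGC0946 replicate 1 gave 339 higher and 141 lower, and SGC0946 replicate 2 gave 391 and 140. Called without each of the 4 libraries in turn were 240 of the genes, 193 higher and 47 lower.

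**Figure D1:**
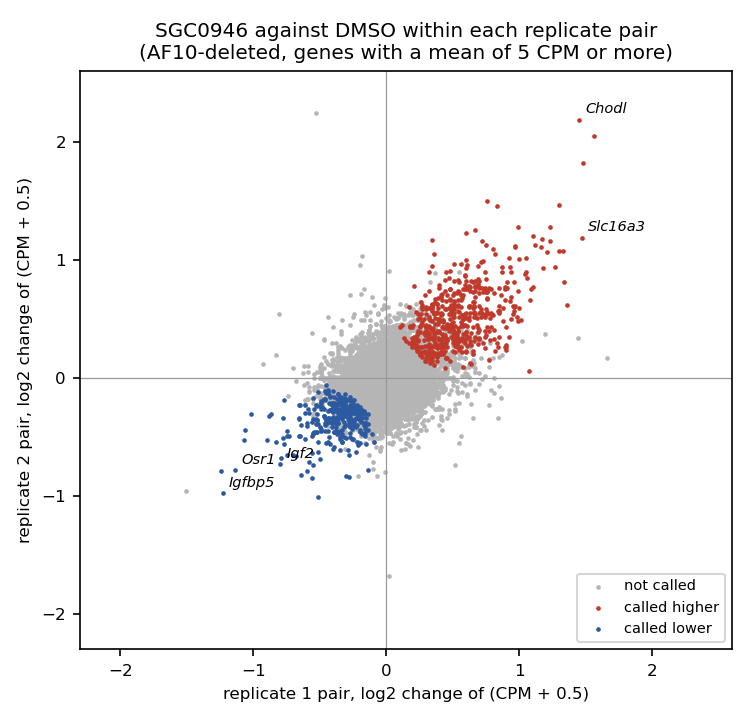
Log2 change of (CPM + 0.5) from DMSO to SGC0946 in the replicate 1 pair (x axis) and the replicate 2 pair (y axis) of AF10-deleted cells, 1 point per gene for the 10998 genes with a mean of 5 CPM or more, coloured by call. Called genes lie in the upper right and lower left, which the calling partly fixes. Gm4535 (0.24 and -4.60) and Rps27 (6.02 and -7.36) lie outside the axes.

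Across the 10998 genes with a mean of at least 5 CPM, the changes of the replicate 1 pair and the replicate 2 pair had a Spearman correlation of 0.295, a description across genes, which are not independent. In the plot of the 2 pairs, genes called higher lay to the upper right of a broad cloud and genes called lower to the lower left. Calling used these same pairs, which partly fixes that placing. Transcript length moved with the change: the median log2 fold change was -0.044 for the 948 genes with transcripts under 1000 bases and 0.037 for the 1441 genes over 6000 bases. This gradient had a Spearman correlation of 0.221 in the replicate 2 pair and 0.022 in the replicate 1 pair. With a correction for length in each library, 738 genes were higher and 333 lower, and 994 of the 1080 calls were among them.

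In each of the 3 marker genes both treated libraries lay on the same side of both controls. They were given as markers of this comparison and are among its genes of lowest p. Their choice can therefore fix this separation, and their values are descriptions. Slc16a3 was at 5.41 and 4.02 CPM in the DMSO libraries and at 15.8 and 9.82 CPM in the SGC0946 libraries. Both treated libraries were above both controls, a log2 fold change of 1.43 ± 0.16 (SE, adjusted p = 1.88e-06, edgeR). Hoxd12 was at 4.95 and 5.14 CPM in DMSO and at 1.04 and 1.01 CPM in SGC0946. It was the strongest fall among the named genes, at -2.28 ± 0.23 (adjusted p = 3.69e-07, edgeR), or 4.85-fold lower. Igfbp5, an abundant transcript, went from 268 and 287 CPM to 114 and 145 CPM, a change of -1.10 ± 0.078 (adjusted p = 1.01e-09, edgeR). On the length-scaled TPM values as deposited, Igfbp5 was at 89.0 and 97.2 TPM in DMSO and 38.9 and 51.1 TPM in SGC0946, well above Hoxd12, which was at 3.86 and 4.09 TPM and then 0.83 TPM in both treated libraries. Each of the 3 kept its call when any of the 4 libraries was left out, but without the replicate block their adjusted p-values were 0.421 for Slc16a3, 0.131 for Hoxd12 and 0.0629 for Igfbp5.

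**Figure D2:**
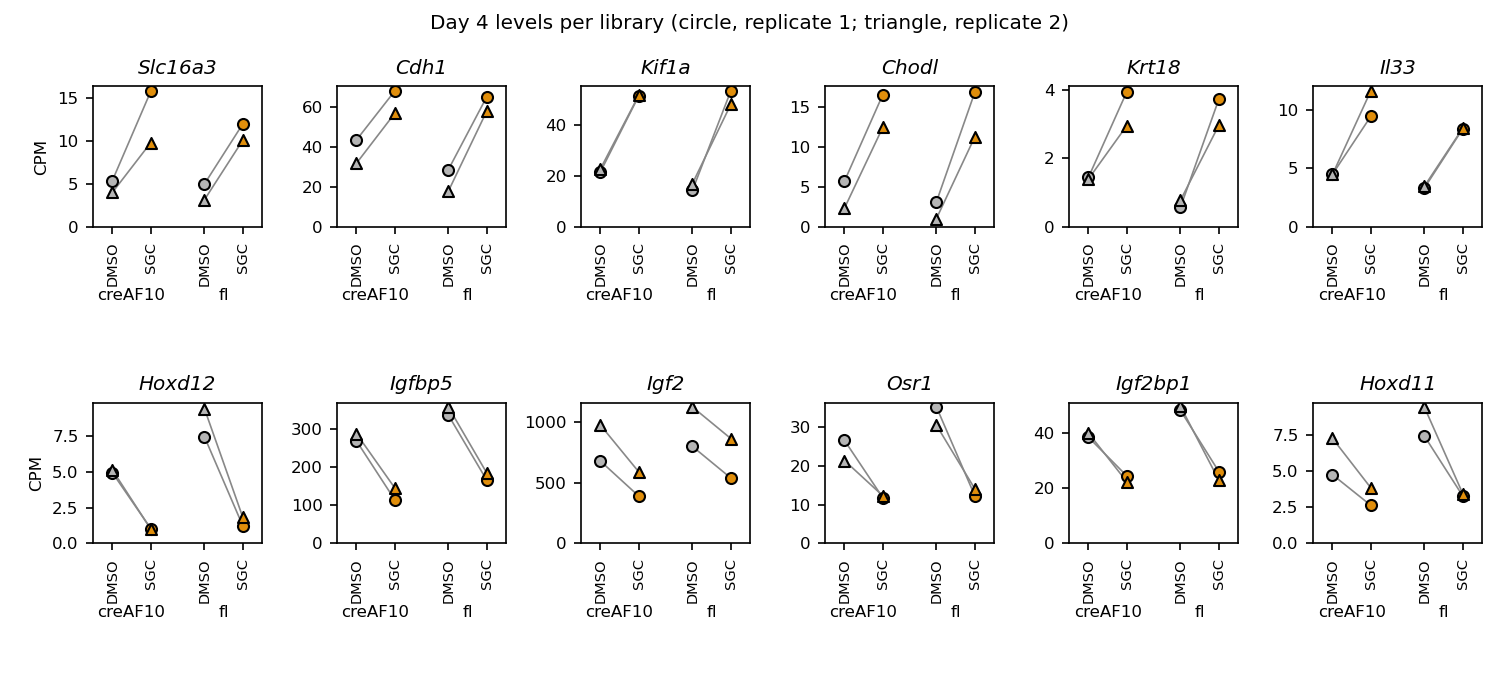
CPM per library (y axis, linear from 0) of 12 genes in day 4 cells, with DMSO libraries in grey and SGC0946 libraries in orange; circles are replicate 1, triangles replicate 2, and lines join the libraries of a pair. In AF10-deleted cells (left of each panel) Slc16a3 rose from 5.41 and 4.02 to 15.8 and 9.82 CPM and Igfbp5 fell from 268 and 287 to 114 and 145 CPM, and the fl cells (right) are shown beside them.

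The Hox genes, which encode the transcription factors that record a cell's position along the body and limb axes, fell or did not change in a way that passed the test. Of 42 tested Hox and cofactor genes, 17 fell and 0 rose, with a median log2 fold change of -0.38, beside 2.47% of all genes that fell. Log2 fold changes were below 0 for 35 of the 42, and at an unadjusted p of 0.05 25 were lower and 1 higher. Without DMSO replicate 1 the number that fell was 7, without SGC0946 replicate 1 or replicate 2 it was 8, and without DMSO replicate 2 it was 12. DESeq2 called 8 lower and 0 higher.

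The HoxD cluster held the largest share, with 6 of 8 tested genes lower and all 8 below 0. Hoxd11, the neighbour of Hoxd12, was at 4.75 and 7.26 CPM in DMSO and 2.63 and 3.84 CPM in SGC0946 (-0.90 ± 0.18, adjusted p = 0.0018, edgeR). Within each pair the treated library was lower. Hoxd13 was the most abundant of these genes on the TPM scale that is shared by Hoxd12 and Hoxd11, at 62.5 and 86.9 TPM in DMSO, and fell by 0.33 on the log2 scale. Hoxd3, towards the 3′ end of the cluster, had a log2 fold change of -0.93, and its call was lost without DMSO replicate 1 (adjusted p = 0.103) or SGC0946 replicate 1 (adjusted p = 0.157, edgeR). Hoxd8 and Hoxd9, in the middle of the cluster, had log2 fold changes of -0.11 and -0.29 that did not pass. In the HoxC cluster 4 of 8 genes fell, among them Hoxc6 (-0.75), Hoxc8 (-0.75) and Hoxc10 (-0.66). In the HoxB cluster 3 of 8 fell, led by Hoxb8 (-1.20) and Hoxb3 (-0.98). In the HoxA cluster 3 of 11 fell, Hoxa9 (-0.42), Hoxa10 (-0.35) and Hoxa11 (-0.30). Of the 7 Meis and Pbx genes, whose products bind DNA together with Hox proteins, Meis2 fell (-0.38) and the other 6 did not pass.

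**Figure D3:**
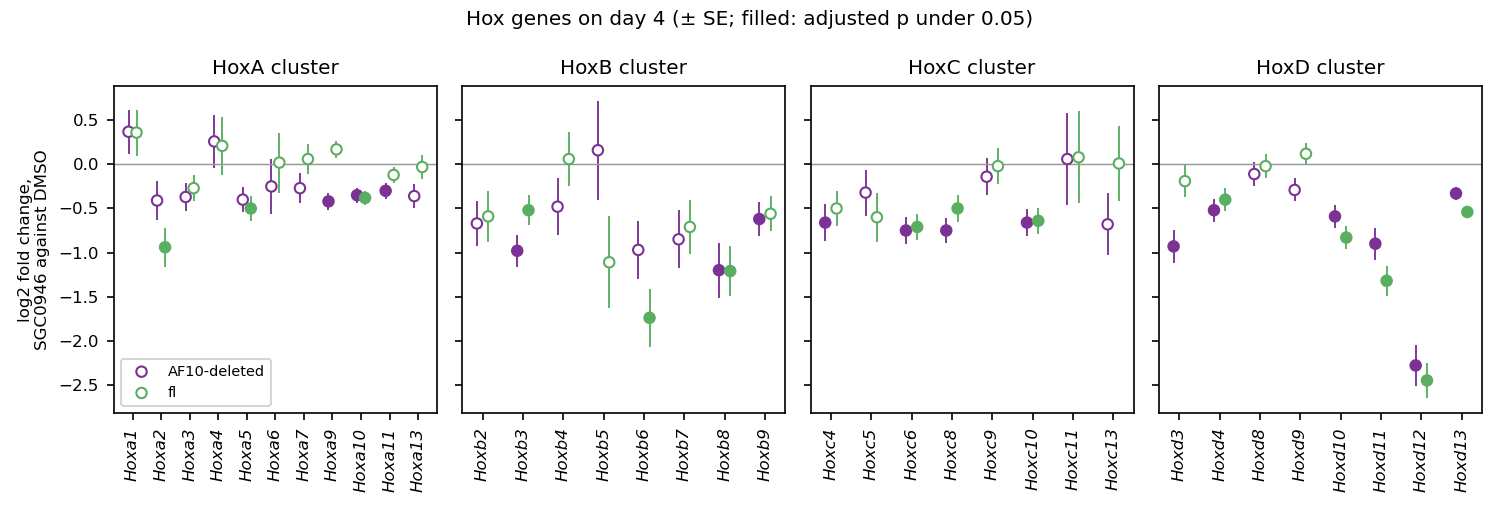
Log2 fold change of SGC0946 against DMSO on day 4 (y axis, ± SE) for each tested gene of the 4 Hox clusters (x axis, in number order), in AF10-deleted cells (purple) and fl cells (green); filled points have an adjusted p under 0.05. Hoxd12 lies lowest in both genotypes (-2.28 and -2.45), and no filled point lies above 0.

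Regulators of limb and connective tissue mesenchyme moved in the same direction as the Hox genes. Of 35 tested, 13 fell and 0 rose, with a median of -0.14 (16 lower and 2 higher at an unadjusted p of 0.05). Osr1, a zinc finger regulator of limb and kidney mesenchyme, went from 26.6 and 21.4 CPM to 11.8 and 12.3 CPM (-0.99 ± 0.11, adjusted p = 1.68e-06, edgeR). Its relative Osr2 went from 89.8 and 62.7 CPM to 57.1 and 44.4 CPM, a change of -0.58. In both genes each treated library was below both controls. The homeobox gene Six2 (-0.80), the limb T-box genes Tbx4 (-0.39), Tbx5 (-0.40) and Tbx15 (-0.33), and Nfia (-0.40), Nfib (-0.34) and Nfix (-0.43) of the nuclear factor I family also fell, as did Meox2, Foxc1 and Runx2, the last a master regulator of bone. The genes usually followed as drivers of the mesenchymal state did not pass: Twist1 had a log2 fold change of -0.19, Zeb1 of -0.14, Zeb2 of 0.09, Snai1 of 0.01, Snai2 of 0.00 and Prrx1 of 0.09. The number that fell was 7 or 8 without any of the 4 libraries, and 1 member rose without DMSO replicate 1, DMSO replicate 2 or SGC0946 replicate 2. DESeq2 called 8 lower.

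Epithelial genes rose together, some of them from low levels. Of 27 listed genes 19 had enough counts to be tested. All 19 had log2 fold changes above 0, with a median of 0.78. Of these 14 rose and 0 fell, beside 5.28% of all genes that rose. The count filter ran over all 6 groups, so a scarce gene could pass it through 1 group where it was high. Lama3, a laminin chain of epithelial basement membrane, rose by 0.48, and Lamb3, another laminin chain, had a log2 fold change of 0.82 that did not pass.

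Cdh1, the epithelial cadherin of adherens junctions, went from 43.6 and 31.9 CPM to 68.2 and 57.0 CPM (0.74 ± 0.10, adjusted p = 3.82e-05, edgeR). Trp63, the p63 regulator of stratified epithelium, went from 27.2 and 29.0 CPM to 44.5 and 51.7 CPM, and both treated libraries were above both controls (0.77). The protease inhibitors of epithelial surfaces Spint1 (0.83) and Spint2 (0.64) rose as well. Krt8 and Krt18, the paired keratins of simple epithelium, rose by 1.18 and 1.27 on the log2 scale, from 1.45 and 1.40 CPM to 3.95 and 2.96 CPM for Krt18. Also higher were Epcam (1.42), the splicing regulator Esrp2 (1.79), Grhl3 (0.97), the tight junction gene Cldn3 (0.60), Krt19 (0.48) and the desmosome gene Dsp (0.39). Esrp2 was still at only 1.97 and 1.64 CPM under SGC0946. Ocln, Marveld3, Ovol1 and Tjp3 lay above 0 and did not pass. The number that rose was 6 without DMSO replicate 1, 8 without SGC0946 replicate 1, 11 without either of the other libraries and 7 by DESeq2. In a separate list of 10 keratinocyte genes 5 were tested and 0 were called by edgeR or DESeq2. At an unadjusted p of 0.05 (edgeR) 1 was higher. The summed level of the 10 was 9.11 and 9.83 CPM in DMSO and 9.59 and 11.5 CPM in SGC0946. Cdsn, a corneodesmosome gene outside both lists, rose by 1.28.

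**Figure D4:**
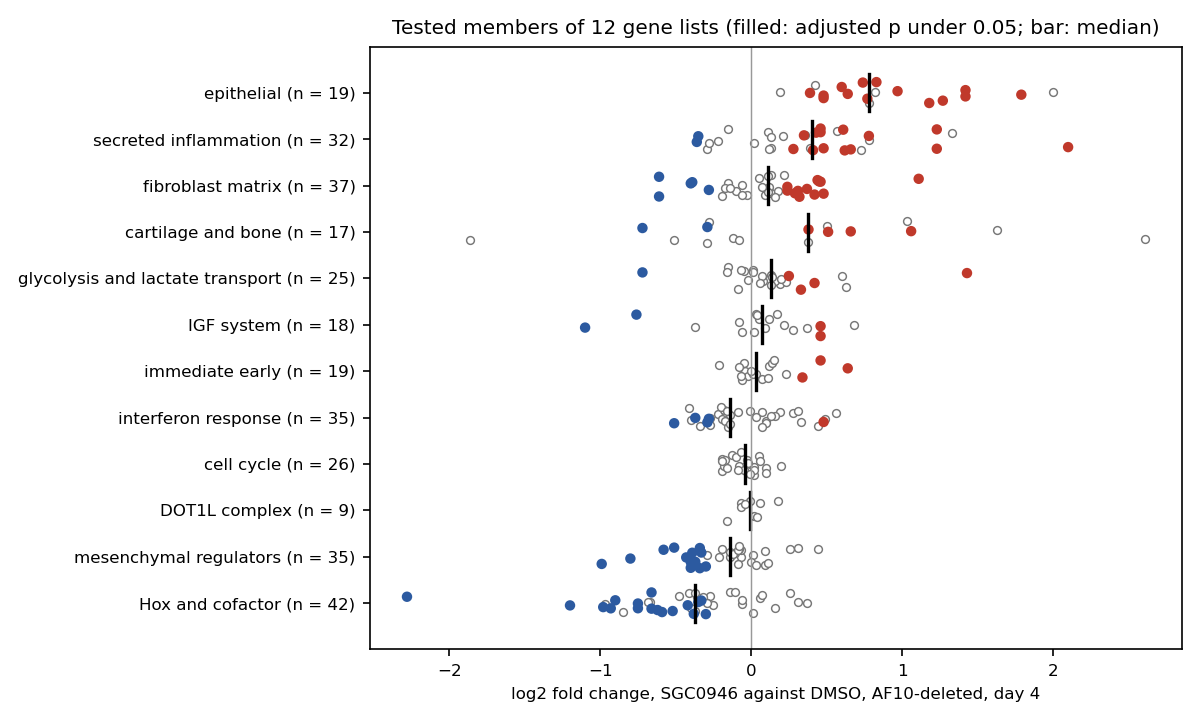
Log2 fold change of SGC0946 against DMSO in AF10-deleted day 4 cells (x axis) for the tested members of 12 gene lists (y axis, number of genes in brackets); filled points have an adjusted p under 0.05, in red where higher and blue where lower, and the bar is the list's median. The epithelial list lies wholly above 0 (median 0.78), and the Hox list has no filled point above 0 (median -0.38).

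Among the insulin-like growth factor genes the ligand Igf2 and the binding protein Igfbp5 fell while 2 other secreted members rose. Igf2, a fetal growth factor, was at 676 and 971 CPM in DMSO and 388 and 587 CPM in SGC0946. Igf2 was lower in the treated library of each pair and in both treated libraries than in both controls (-0.76 ± 0.077, adjusted p = 3.34e-07, edgeR). Igf2bp1, an oncofetal protein that binds Igf2 and other messenger RNAs, went from 38.4 and 39.9 CPM to 24.4 and 22.3 CPM (-0.74 ± 0.091, adjusted p = 6.36e-06, edgeR). Igf2bp2 and Igf2bp3 had log2 fold changes of -0.12 and -0.20 that did not pass, as did Hmga1 (-0.25) and Hmga2 (0.09). Igfbp7 and the stanniocalcin Stc2, an inhibitor of the protease that frees the growth factors from their binding proteins, rose by 0.46 each. Of 18 tested members 2 rose, 2 fell and 14 did not pass, among them the receptors Igf1r (-0.06), Igf2r (0.03) and Insr (0.05).

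Secreted factors of inflammation and genes of the plasminogen system mostly rose where they passed the test. Of 32 tested, 14 rose and 2 fell, with a median of 0.40. Plau, the urokinase plasminogen activator, and its receptor Plaur rose by 0.66 and 0.46. The alarmin Il33 rose by 1.23, from 4.49 and 4.47 CPM to 9.43 and 11.6 CPM, and the chemokines Ccl20 and Ccl2 by 1.23 and 0.62. Complement C3 (0.61), the stromelysins Mmp3 (0.35) and Mmp10 (2.10), and Nfkbia (0.46) and Tnfaip3 (0.41), both feedback inhibitors of NF-κB, were also higher. Mmp10 was scarce, at 0.264 and 0.670 CPM in DMSO. Cxcl12, the stromal chemokine, fell from 574 and 565 CPM to 446 and 445 CPM (-0.36), and Vcam1 fell by 0.35. The cytokine Il6 had a log2 fold change of 0.57 and the chemokine Cxcl1 of -0.15, neither of which passed. Without SGC0946 replicate 2 the number that rose was 6, without DMSO replicate 1 it was 8 and without SGC0946 replicate 1 it was 9. DESeq2 called 8 higher.

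Fibroblast matrix genes changed in both directions. Of 37 tested, 12 rose and 5 fell, with a median of 0.11. Those that rose included the matricellular Thbs1, from 2630 and 2970 CPM to 3780 and 3850 CPM (0.45 ± 0.074, adjusted p = 0.000206, edgeR), its relative Thbs2 (0.48), fibronectin Fn1 (0.32), fibrillin Fbn1 (0.42), and the collagens Col14a1 (1.11), Col8a1 (0.46) and Col1a1 (0.31). Those that fell were the proteoglycans Lum (-0.61) and Vcan (-0.28), elastin Eln (-0.40), periostin Postn (-0.39) and Abi3bp (-0.61), which went from 85.2 and 92.1 CPM to 51.1 and 65.6 CPM. Thy1, Pdgfra and Col3a1, the usual fibroblast markers, had log2 fold changes of -0.14, 0.09 and -0.19 and did not pass. Without DMSO replicate 1 the list had 6 higher and 3 lower, and without SGC0946 replicate 1 it had 6 and 1. Without SGC0946 replicate 2 it had 8 higher and 4 lower. In bulk samples, a smaller share of a cell type and less RNA per cell of that type cannot be told apart.

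Pluripotency genes were mostly low or undetected in both groups, and 2 of them rose in edgeR and 0 in DESeq2. The 4 reprogramming factors were similar in DMSO and SGC0946: Pou5f1 was at 106 and 89.6 CPM and then 90.7 and 93.5 CPM, and Sox2 at 83.3 and 96.1 CPM and then 84.4 and 87.4 CPM. Klf4 had a log2 fold change of -0.17 (adjusted p = 0.168, edgeR). Myc, which fibroblasts also express, fell from 318 and 289 CPM to 255 and 257 CPM (-0.25 ± 0.067, adjusted p = 0.0195, edgeR), a call that was lost without DMSO replicate 1 (adjusted p = 0.207) or SGC0946 replicate 1 (adjusted p = 0.256). Cassette and endogenous transcripts of these genes share coding sequence, and a gene-level count does not part them. Of 25 pluripotency genes 11 had enough counts to be tested, and those that rose were Gdf3, a ligand of the Nodal family, from 0.726 and 0.894 CPM to 2.25 and 2.52 CPM (1.54 ± 0.33, adjusted p = 0.00346, edgeR), and Tet1, which oxidises methylated cytosine (0.44, adjusted p = 0.0274). By DESeq2 their adjusted p were 0.141 and 0.222. Without each of the 4 libraries in turn Gdf3 kept its call, at an adjusted p of 0.0391 to 0.0496, and Tet1 lost it, at 0.0684 to 0.244. Nanog had 30 and 0 counts in DMSO and 36 and 24 in SGC0946, and did not pass. Esrrb and Lin28a had 0 counts in all 4 libraries and Zfp42 had 1 in all, so the later network was not detectable at this depth.

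No gene of the DOT1L complex passed the test, in a list of 9 with log2 fold changes from -0.16 (Npm1) to 0.18 (Dot1l). Dot1l itself was at 56.9 and 55.4 CPM in DMSO and 68.1 and 59.7 CPM in SGC0946 (adjusted p = 0.164, edgeR). Of the partners that bind DOT1L, Mllt10 had -0.07, Mllt6 -0.01, Mllt3 -0.07 and Mllt1 0.02. The 17 genes of the super elongation and Paf1 complexes, which act with DOT1L partners on transcribing RNA polymerase, also gave 0 calls. At an unadjusted p of 0.05 the complex had 2 genes and these 17 had 6, 3 in each direction, and DESeq2 called 0 in both lists.

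Slc16a3 had the largest change of its pathway list. Of 25 genes of glycolysis and lactate transport 4 rose and 1 fell, with a median of 0.13. Beside Slc16a3, the glucose transporters Slc2a1 (0.33) and Slc2a3 (0.42) and the liver-type phosphofructokinase Pfkl (0.25) rose. Aldoc, the brain-type aldolase, fell from 65.5 and 52.7 CPM to 38.6 and 33.3 CPM (-0.72 ± 0.094, adjusted p = 1.14e-05, edgeR). The lactate transporters Slc16a1 and Slc16a7 had log2 fold changes of -0.07 and 0.60 and Ldha one of 0.08, and none of these passed. Without DMSO replicate 1 the list had 2 higher, and without SGC0946 replicate 1 it had 1. Of 20 hypoxia response genes 1 rose, the collagen hydroxylase P4ha2 (0.44).

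The remaining genes with the lowest p-values belong to no single list. Kif1a, a kinesin motor known from neurons, went from 21.7 and 22.9 CPM to 51.7 and 51.9 CPM (1.21 ± 0.093, adjusted p = 3.76e-09, edgeR). The molybdenum oxidases Aox3 and Xdh rose by 0.98 and 1.17 on the log2 scale, ceruloplasmin Cp by 0.84 and the aryl hydrocarbon receptor Ahr by 0.66. Pygl, the liver glycogen phosphorylase, went from 12.2 and 13.6 CPM to 25.8 and 25.7 CPM (1.00). In Kif1a and Pygl the 2 libraries of a group lay close together, far from the other group. Chodl, a membrane lectin, rose by 1.89 and the uncharacterised 4833403I15Rik by 1.77. Other large increases were Esyt3 (1.32), C130074G19Rik (1.32) and the corneodesmosome gene Cdsn (1.28). Gm10136 had a log2 fold change of 1.84 (adjusted p = 0.0122, edgeR), but near-identical copies can share its reads and its call was lost without either DMSO library (adjusted p of 0.156 and 0.143).

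Further genes that fell were Tcfap2b, an AP-2 transcription factor, from 38.0 and 51.0 CPM to 21.8 and 31.6 CPM (-0.74), the chromatin reader Zmynd8 (-0.52), 2010011I20Rik (-0.68) and the acute phase gene Hp (-1.06). The cell cycle inhibitors Cdkn2c (-0.76) and Cdkn1b (-0.45) fell, 2 of 12 in their list. Angptl1 had a log2 fold change of -0.79 and lost its call without DMSO replicate 1 (adjusted p = 0.265) or SGC0946 replicate 1 (adjusted p = 0.329, edgeR). Rpl26, a ribosomal protein gene, had -0.56; genes of this kind have near-identical processed copies in the genome that can share reads, so its value is uncertain.

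Fewer members of the other lists passed the test. Of 26 cell cycle genes edgeR and DESeq2 called 0, with log2 fold changes from -0.19 to 0.20, and 5 were lower and 1 higher at an unadjusted p of 0.05. Of 35 interferon response genes 4 fell and 1 rose: Ifitm3 (-0.37), B2m (-0.29), Irf9 (-0.28) and Ifit1 (-0.51) fell and Ifih1 rose (0.48). These 5 calls of 35 stand beside the background of 7.75%, and the count was 0 without SGC0946 replicate 2. Of 19 immediate early genes 3 rose, Fosl2 (0.46), Ier3 (0.34) and Atf3 (0.64), while Fos (-0.21) and Egr1 (-0.06) did not pass. The p53 target Pmaip1 (0.53) rose, 1 of 23, and Elovl6 (-0.34) fell, 1 of 27 genes of sterol and fatty acid synthesis. In the list of the unfolded protein and amino acid stress responses, Asns (0.33), Slc7a11 (0.66) and Atf3 rose, 3 of 19. Of 5 metallothionein and zinc genes edgeR and DESeq2 called 0, and 1 was higher at an unadjusted p of 0.05.

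Markers of other cell types were followed as lists. Bone and cartilage genes gave 4 higher and 2 lower of 17: Spp1, Col9a2, Col10a1 and Col11a1 rose, and Comp and Mgp fell. Their summed level, most of it Spp1 and Mgp, was 5040 and 6260 CPM in DMSO and 5280 and 6750 CPM in SGC0946. Adipocyte genes had 3 of 9 higher, Fabp4 (0.74), Fabp5 (0.57) and Plin4 (0.56), and a summed level of 169 and 183 CPM in DMSO and 238 and 222 CPM in SGC0946. Plin1 and Retn were at 0 in all 4 libraries. Smooth muscle genes had 2 of 14 higher, Myl9 (0.48) and Acta2 (0.28), with sums of 2870 and 3170 CPM and then 3220 and 3300 CPM. Macrophage and blood genes summed to 59.9 and 87.9 CPM in DMSO and 67.8 and 79.9 CPM in SGC0946, with 1 of 16 higher (Cd14, 0.88), and Ptprc had 1 to 8 counts in every library. Endothelial genes summed to 123 and 150 CPM and then 120 and 158 CPM, with 1 of 5 higher (Flt1, 1.17), and neural genes to 165 and 225 CPM and then 199 and 234 CPM, with 1 of 11 higher (Nes, 0.33). In the bone and cartilage, macrophage, endothelial and neural sums the ranges of the 2 groups overlapped. Skeletal and cardiac muscle genes gave 0 calls of 8 by edgeR or DESeq2 and 0 at an unadjusted p of 0.05, and Myod1, Myf5 and Ckm were at 0. The part of these cells in the changes above was not tested.

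Of the 87 called genes chosen by the naming rule, 50 kept their call without each of the 4 libraries in turn and 37 lost it at least once, at adjusted p-values from 0.0507 to 0.489. Those lost without a single library were Vcam1 and Col11a1 (DMSO replicate 1), Hoxc6 (DMSO replicate 2), Cdkn2c, Eln, Lum, Slc2a1, Elovl6 and Flt1 (SGC0946 replicate 1), and Hoxc8 and Ifitm3 (SGC0946 replicate 2). Tet1, B2m, Ifit1 and Cd14 lost their calls without each library. The other 22 lost theirs without 2 or 3 of the libraries and were Myc, Gm10136, Hoxd3, Angptl1, Postn, Slc2a3, Pfkl, P4ha2, Igfbp7, Stc2, Atf3, Ifih1, Cdkn1b, Slc7a11, Acta2, Mgp, Plin4, Nes, Ier3, Irf9, Pmaip1 and Asns.

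Most genes that SGC0946 changed in AF10-deleted cells were also called in the fl cells. In fl cells 1480 genes were higher (10.6%) and 990 lower (7.10%). Of the 1080 genes called in AF10-deleted cells 796 were called in fl cells, which is 73.7% of the former and 32.2% of the latter. Of these, 792 went in the same direction; the other 4 were Mgp, Rpl26, Rps16 and Rangrf. The 2 effects share no library, but the same fit gave both, with the same spread per gene and the same replicate block. Their calls are therefore not independent. Genes that rose in fl cells had a median log2 fold change of 0.71 there and 0.40 in AF10-deleted cells, and genes that fell had -0.35 and -0.15. Genes that rose in AF10-deleted cells had a median of 0.73 in fl cells, and those that fell had -0.33, against the 0.63 and -0.34 given above. Medians of genes selected in 1 genotype are larger in size there through that selection, so these pairs are descriptions. Igfbp5 and Slc16a3 changed by -0.98 and 1.46 in fl cells, close to their changes in AF10-deleted cells, and the differences between the genotypes did not pass (adjusted p of 0.782 and 0.985, edgeR).

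The test of the difference itself called 55 genes (0.395%), and 1445 passed an unadjusted p of 0.05. The change was lower in AF10-deleted cells for 45 of them (0.323%) and higher for 10 (0.0718%). Of the 284 genes called in AF10-deleted cells alone, 3 had a called difference, and of the 1674 called in fl cells alone, 27 did. Transcript length moved with the change in opposite directions in the 2 genotypes. Its Spearman correlation across genes was 0.154 in AF10-deleted cells and -0.171 in fl cells. With the length correction 47 differences were called, and the part of length in single genes was not tested. The count was 0 without the replicate block (303 at an unadjusted p of 0.05), 46 by DESeq2 and 12 to 63 when 1 of the 8 day 4 libraries was left out, with the lowest value without fl DMSO replicate 2. Left out in the same way, 9 genes kept their call each time: Angptl7, Htra3, Rpl26, Ptx3, Ier5, Wnt16, Megf9, Ret and Col28a1, a set named after its values were seen.

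Most of these genes rose in fl cells and were higher in AF10-deleted than in fl cells in DMSO. The difference of effects subtracts these same DMSO values, so the choice of the genes partly fixes that order, and the levels are a description with no test. Of the 55, 43 rose in fl cells, and in DMSO all 43 were higher in AF10-deleted than in fl cells, by a median log2 difference of 0.57. Under SGC0946 the median difference was -0.13, with 12 above 0 and 31 below. Over all 1480 genes that rose in fl cells, a set whose choice also used the fl DMSO values, 1341 were higher in AF10-deleted cells in DMSO, with a median of 0.26, and 718 under SGC0946. Angptl7, a secreted angiopoietin-like protein, was at 98.8 and 110 CPM in fl DMSO cells and 143 and 167 CPM in AF10-deleted DMSO cells. Under SGC0946 it was at 253 and 269 CPM in fl cells and 188 and 222 CPM in AF10-deleted cells, so its change was 1.32 against 0.40 (difference -0.92, adjusted p = 3.14e-06, edgeR). Col28a1 met at the same level: 5.17 and 5.27 CPM in fl DMSO, 12.1 and 11.1 CPM in AF10-deleted DMSO, and 22.7, 22.3, 21.4 and 24.0 CPM in the 4 SGC0946 libraries. Among the epithelial genes Cdh1 and Spint1 had a called difference, and among the secreted factors Ccl2, Lcn2, Mmp3 and Icam1. The receptor tyrosine kinase Ret rose by 1.30 in fl cells and by 0.50 in AF10-deleted cells, and the ligand Wnt16 by 1.10 in fl cells, with a log2 fold change of 0.26 in AF10-deleted cells that did not pass. The pattern ran the other way for 8 genes that fell in fl cells, with Rangrf left out: in DMSO all 8 were lower in AF10-deleted cells, by a median log2 difference of -0.41, and under SGC0946 7 of the 8 were higher, with a median of 0.21. Of all 990 that fell in fl cells 912 were lower in AF10-deleted cells in DMSO, with a median of -0.18, and 448 under SGC0946. Megf9 was 1 of them, at 12.2 and 18.7 CPM in fl DMSO and 5.61 and 8.71 CPM in AF10-deleted DMSO.

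**Figure D5:**
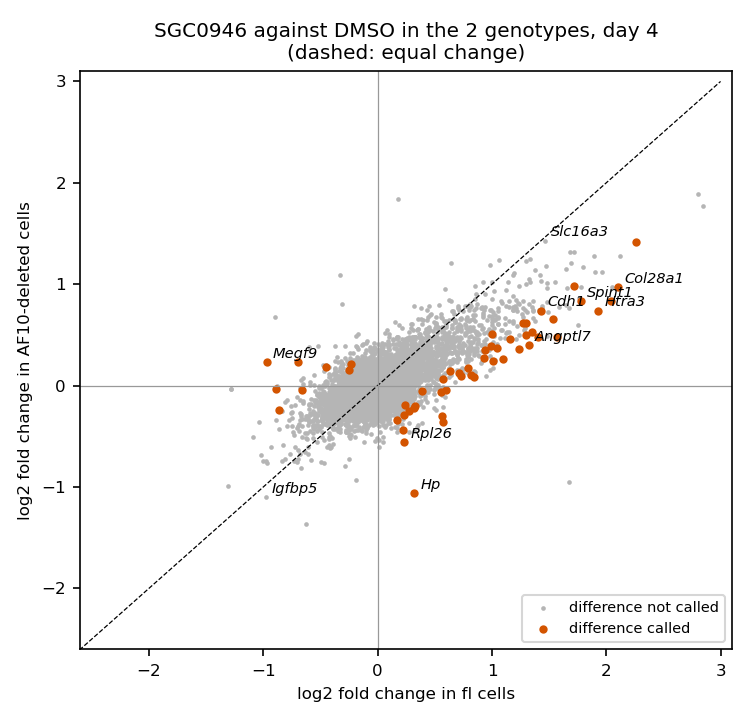
Log2 fold change of SGC0946 against DMSO on day 4 in fl cells (x axis) and AF10-deleted cells (y axis), 1 point per gene with a mean of 5 CPM or more; orange points have a called difference between the genotypes and the dashed line marks equal change. Most orange points lie to the right of the dashed line with a smaller rise in AF10-deleted cells, such as Angptl7 (1.32 and 0.40); Rps27 (-11.91 and -0.71) lies outside the axes.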

How the data were processed

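Libraries were made from polyadenylated RNA with the TruSeq V2 kit, per the labels' protocols. Per the submitters' processing notes, RSEM and Bowtie were used with build mm9; their versions are not given in the sources used here. The deposited files hold RSEM expected counts per gene, per the file headers, and these were rounded to whole numbers. The TPM values are deposited too, and RSEM scales them by transcript length and library, per the file headers. Gene names in 10 of the 12 files included 25 changed to dates and in the 2 Day4_creAF10_DMSO files 0, so rows were joined by transcript identifier.

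All 12 libraries were fitted with edgeR 4.0.16 (R 4.3.3): filterByExpr over the 6 groups kept 13936 genes, TMM scaling was used, and a quasi-likelihood F test was made with 1 term per group and the replicate number as a block within the MEF and the day 4 libraries. Genes were called at a Benjamini-Hochberg adjusted p under 0.05 over all genes tested. The block was kept because same-numbered day 4 libraries deviated together from their group means (correlation 0.413 to 0.534 over 6 pairs of groups, and 0.413 for this comparison) and shared Y-linked expression. SE is the log2 fold change divided by the square root of F. CPM are TMM-scaled, and changes within a pair used log2 of CPM plus 0.5. The fit was also run on data simulated with known changes from the same blocked model. That run cannot show whether the block is right for the real libraries.

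Members, lists and families were chosen with earlier results of these data known. Named genes were Slc16a3, Hoxd12, Igfbp5, Mllt10, Dot1l and the 4 reprogramming factors; of the genes that changed the same way in both pairs, the 12 of lowest p and the 8 of largest change (mean of 5 CPM or more) in each direction; and of each list the 4 called members of lowest p in each direction. Some genes that this rule takes are not reported here, although counts include them. Other list members are named as parts of their counts. Alternatives were no block, a block shared by both stages, 8 or 4 libraries, DESeq2 1.42.0, RLE and upper quartile scaling, 2 other filters, each day 4 library left out and, chosen after seeing the data, a correction for transcript length.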

Additional observations from a re-analysis of the deposited data

Results flagged for a closer look

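For 7 of the named genes the effect of SGC0946 in AF10-deleted cells differed from that in fl cells in the test of the difference itself (edgeR, adjusted over all genes tested). The log2 differences, AF10-deleted minus fl, were -0.74 for Aox3, -0.69 for Cdh1, -0.95 for Spint1 and -0.49 for Spp1. These 4 rose in both genotypes and rose less where AF10 was deleted. Spp1, which encodes osteopontin, was at 1820 and 2310 CPM in AF10-deleted DMSO cells and 1200 and 1510 CPM in fl DMSO cells, and at 2570 and 3310 CPM and 2380 and 3050 CPM under SGC0946.

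The other 3 fell in AF10-deleted cells and had a log2 fold change above 0 in fl cells. The differences were -0.80 for Rpl26, -1.38 for Hp and -0.52 for Mgp. Mgp, a calcification inhibitor, went from 2970 and 3650 CPM to 2380 and 3070 CPM in AF10-deleted cells, lower in each pair, with a log2 fold change of 0.23 in fl cells. Hp was at 7.39 and 10.7 CPM in AF10-deleted DMSO cells and 2.85 and 5.98 CPM under SGC0946. Of these 7 genes Rpl26 kept a called difference without each of the 8 day 4 libraries in turn and the other 6 lost it at least once. No difference was called without the replicate block.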

How the results depend on the processing

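Of the 92 named genes, 90 kept their direction under every alternative run, while the number of calls moved widely. Most were chosen for their calls in these same libraries, which partly fixes their direction. Without the replicate block, edgeR called 1 gene higher and 0 lower and 0 differences between genotypes, and with a replicate block shared by both stages 71 higher, 22 lower and 1 difference. DESeq2 called 292 higher and 145 lower, and 431 of its 437 calls were among the 1080. Leaving out 1 of the 8 day 4 libraries gave 339 (SGC0946 replicate 1) to 767 genes higher and 140 (SGC0946 replicate 2) to 362 lower. Differences numbered 12 (without fl DMSO replicate 2) to 63, with 31 without AF10-deleted SGC0946 replicate 1, 35 without fl DMSO replicate 1, 33 without fl SGC0946 replicate 2 and 134 with no filter on low counts. The counts stayed within 1.5 times the reported ones under the other scalings and filters, with 8 or 4 libraries and with the length correction, apart from that filter. Of the 87 called genes chosen by the naming rule, all kept their call under RLE and upper quartile scaling and both other filters, 84 with 8 or with 4 libraries, 85 with the length correction, 72 with DESeq2, 25 with the shared block and 1 without the block. The sign changed for the other 2, neither of them called: Pou5f1 ranged from -0.19 to 0.03 (without DMSO replicate 1) and Sox2 from -0.16 to 0.04 (without DMSO replicate 2). The cause was not tested. With 2 libraries per group the fit had 4 residual degrees of freedom. Its p-values also draw on a spread shared across genes, with a median weight of 22.4 degrees of freedom. Genes with few counts, such as Nanog and Esrp2, are also limited by depth.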

Other observations

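Several protein families held called genes; they were chosen by symbol after their values were seen, so their counts are descriptions, and some overlap the lists above. Of 40 tested collagen genes 14 rose and 1 fell, with a median log2 fold change of 0.30 beside -0.004 over all genes, and 8 of the 14 were already counted as matrix, cartilage or bone genes. They included Col6a6 (1.25), Col28a1 (0.97), the anchoring fibril collagen Col7a1 (0.62), Col16a1 (0.48) and the basement membrane collagen Col4a6 (0.43). The 1 that fell, Col20a1 (-0.61 ± 0.187), passed narrowly (adjusted p = 0.0434, edgeR), so its fall is uncertain. The number of collagens that rose was 6 without DMSO replicate 1, 8 without SGC0946 replicate 1 and 9 without SGC0946 replicate 2. Of 26 genes with integrin-type symbols, which include a few binding proteins, 10 rose and 0 fell, with a median of 0.42, and 6 rose without SGC0946 replicate 1 and 5 without SGC0946 replicate 2. The alpha chains Itga3 (0.76), Itga1 (0.70), Itga6 (0.67), Itga7 (0.65) and Itga8 (0.57) rose. Itga3 and Itga6 belong to the receptors for laminin. The common beta chain Itgb1 had 0.12 and the vitronectin receptor chain Itgav -0.01, and neither passed. Of the laminins themselves Lama5 (0.55) and Lama3 (0.48, an epithelial list member) rose, while the fibroblast chains Lamb1 (-0.02), Lamc1 (0.11) and Lama4 (0.03) did not pass.

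Enzymes that break down cyclic nucleotides changed in both directions, 7 higher and 2 lower of 18. The calcium-dependent Pde1b (1.45) and Pde1a (1.02) had the largest called increases, and Pde7a (-0.33) and Pde8a (-0.32) fell. Without DMSO replicate 1 or SGC0946 replicate 1 the family had 2 higher and 0 lower, and it had 0 lower without either of the other libraries. Of the ADAMTS proteases and relatives 2 rose and 5 fell of 22, led by Adamts3 (-0.72) and Adamts14 (0.65); it was 0 and 3 without SGC0946 replicate 2, 3 and 3 without DMSO replicate 1, 1 and 4 without SGC0946 replicate 1 or by DESeq2, and 3 and 4 without DMSO replicate 2. The 9 tested facilitative glucose transporters all had log2 fold changes above 0, and 3 rose, Slc2a6 (0.70), Slc2a3 (0.42) and Slc2a1 (0.33), the last 2 also counted in the glycolysis list. In the family 1 was called without SGC0946 replicate 1, which was none of these 3, and 2 without DMSO replicate 1 or by DESeq2. Of 18 tested aldehyde dehydrogenases 3 rose and 1 fell, and DESeq2 called 2 higher and 0 lower. Among their retinoic acid synthesis genes Aldh1a1 rose (0.64) and Aldh1a2 fell (-0.79, adjusted p = 0.0326, edgeR), the latter not called by DESeq2. Aldh1a3 had a log2 fold change of 0.19 that did not pass. Of 23 sulfotransferases of heparan and chondroitin chains 4 rose, with Chst15 (0.75) first, and 5 fell, with Hs3st3b1 (-0.54) first. The numbers were 1 higher and 1 lower without SGC0946 replicate 1, 1 and 2 without DMSO replicate 1 or by DESeq2, 3 and 2 without DMSO replicate 2, and 2 and 3 without SGC0946 replicate 2.

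Of 76 ribosomal protein genes 8 fell and 0 rose in AF10-deleted cells, with a median of -0.08 that was -0.07 with upper quartile scaling and -0.04 with the length correction. Those that fell were Rpl26 (-0.56), Rps16 (-0.44), Rplp2 (-0.34), Rpl13a (-0.33), Rps15a (-0.32), Rpl28 (-0.30), Rps28 (-0.28) and Rpl12 (-0.25), and the number was 4 without DMSO replicate 1 or SGC0946 replicate 1. Their reads can be shared with processed copies in the genome. In fl cells 6 rose and 1 fell, with a median of 0.06; with the length correction 2 rose and 2 fell. These transcripts are short, and the median over all 948 tested genes with transcripts under 1000 bases was -0.044 in AF10-deleted cells and 0.052 in fl cells. The difference between the genotypes was called for Rpl26, Rps16 and Rplp2 among these, and for Rpl21.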
